A study of Equus caballus with 19 samples.

Results

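Collagens other than the fibril-forming kinds organise the surroundings of a tendon cell. Collagen IV is a sheet-like network and the backbone of basement membranes, and its commonest trimer is built from the COL4A1 and COL4A2 chains. Collagen VI forms beaded filaments from COL6A1, COL6A2 and COL6A3 chains and is abundant in the pericellular matrix around tenocytes. COL12A1, COL14A1 and COL16A1 are FACIT collagens, which sit on the surface of collagen fibrils and link them to other matrix, COL15A1 is a multiplexin found where basement membranes meet the fibrillar matrix, and COL8A1 is a short-chain collagen that forms networks.

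These 10 genes, 10 of the 29196 in each of 2 deposited tables, were followed by gene symbol in equine tenocytes exposed to interleukin-1β (IL-1β), an inflammatory cytokine, with or without IL1Ra, the antagonist that occupies its receptor. Tenocytes of the superficial digital flexor tendon, labelled wild type (WT), came from adult Thoroughbred horses (Equus caballus) and had been passaged. They were cast in three-dimensional gels of bovine collagen I, which supplied a fibrillar matrix. Matrix that the cells added to it was not measured here. The first batch held lines 1 to 5, each from its own donor, left unstimulated as the control or given 1 nM IL-1β. In the second batch lines 6 to 8 were left unstimulated, given IL-1β at 1 nM, or given that IL-1β dose together with IL1Ra at 100 ng/ml. RNA was taken on day 14, and each line gave 1 library per condition, 19 in all. The antagonist without the cytokine was not analysed here.

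Values are normalised counts, read estimates per gene scaled by the study within each batch. The batches were scaled apart, so levels were compared only within a batch, and since the counts are not divided by transcript length, levels were not compared between genes. The values of a library summed to between 43393903 and 49197980 in the first batch and between 24964149 and 34602014 in the second. A gene is called differentially expressed (DE) when its adjusted p is under 0.05 and its log2-fold change is at least 1 in size, with limma run over every gene that passed a filter on low values. All 10 collagens passed that filter in both batches. Log2-fold changes are differences between mean log2 values, so that a gene can have a lower mean log2 value and a higher mean count when 1 line stands far above the others.

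The tenocyte label was compared with its markers. TNMD, a marker of differentiated tendon cells, was listed at 0 in each of the 10 first-batch libraries, while the tendon transcription factors SCX and MKX had medians of 1516 and 1702 normalised counts in controls. Endothelial cells, a source of collagen IV, were nearly unrepresented, because 7 endothelial genes summed to between 22.4 and 103 in the first batch and CDH5 never passed 3.5. Mural cell genes, 6 that mark pericytes and smooth muscle, summed to between 15015 and 51434 in first-batch controls and between 6791 and 12008 with IL-1β, and 3 of the 6 (RGS5, DES and MCAM) fell; with the tenocyte line as a block MYH11 and CNN1 fell too and ABCC9 rose. Leukocyte genes, 7 in number, summed to between 58.3 and 2076 in controls and between 311 and 3713 with IL-1β. CD14 reached 1947 in controls and 2811 with IL-1β, with a median of 0 in both groups. CD68, the only 1 of the 7 that passed the filter, rose. The pan-leukocyte gene PTPRC was listed at 0 in every control and reached 3.64 with IL-1β. The 4 epithelial genes summed to between 1416 and 3906 in controls and between 21.8 and 544 with IL-1β, nearly all of it CDH1, which fell, and the 4 Schwann cell genes never summed to more than 6.07 in this batch. Of the 8 tenocyte markers tested, 6 fell. Over all genes tested in this batch, 7.9% fell and 4.91% rose (10.2 and 6% with the block).

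In the second batch TNMD was listed at 0 in all libraries but 1 control, where it was at 1.00, SCX ranged from 105 to 4720 and MKX from 11.5 to 4059 in controls, the endothelial genes summed to between 20.4 and 49.5, and the mural cell genes to between 5463 and 14052 in controls, 2765 and 7574 with IL-1β and 2233 and 9914 with IL1Ra added. The leukocyte genes summed to between 230 and 1267 in controls, 672 and 3052 with IL-1β and 728 and 2051 with IL1Ra, and PTPRC never passed 6.5. CD68 had a log2-fold change of 1.89 with IL-1β and rose with the block (limma adjusted p = 0.586, with the block 0.0369), and DES and MCAM fell with the block. The Schwann cell genes summed to as much as 71.7 in controls, 116 with IL-1β and 233 with IL1Ra, against medians of 15.1, 5.48 and 6.85, and the epithelial genes to no more than 109. The markers of both batches were read in the same libraries as the collagens below, and their part in the collagen values was not tested.

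The first question was what IL-1β did to these collagens in 5 lines. All 10 had a lower mean log2 value with IL-1β, 9 of them in each of the 5 lines, and 7 fell as DE genes: COL4A1, COL4A2, COL6A2, COL6A3, COL8A1, COL12A1 and COL15A1. A lower mean log2 value was found for 7407 of all 14719 genes tested, and the share lower in every line was not counted. Over all 14719 genes tested 7.9% fell as DE genes, and 10.2% did once the tenocyte line entered as a block, against the same 7 of the 10 collagens. The median log2-fold change of the 10 was −1.40, beside −0.0034 over all genes tested. For 7 of the 10 the control and IL-1β groups did not overlap, a pattern that 10.2% of all genes showed in this direction. Together the 10 genes held between 1.21 and 1.94% of a control library and between 0.389 and 0.934% of an IL-1β library. RNA was measured in whole cultures, so a smaller number of cells making a collagen and less RNA in each cell cannot be told apart.

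**Figure D1:**
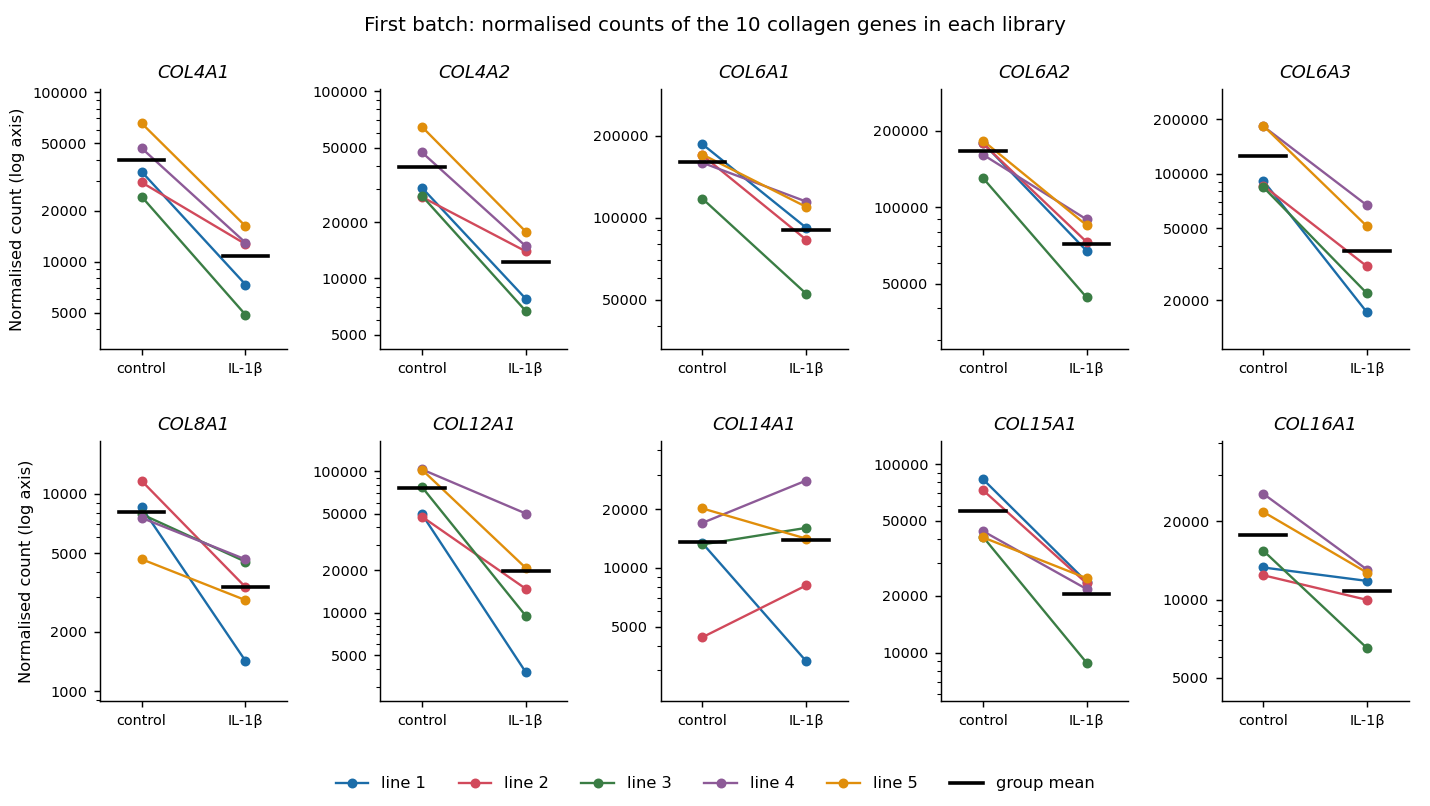
Normalised counts (log axis) of the 10 collagen genes in the 10 first-batch libraries, control on the left and IL-1β on the right, with 1 coloured line per tenocyte line and a black bar at the group mean. Every tenocyte line slopes downwards in 9 panels, and COL14A1 goes up in 3 of the 5 lines.

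Both chains of the collagen IV network fell. COL4A1 was at 33902, 29323, 24151, 46667 and 65470 normalised counts in the controls of lines 1 to 5, and at 7322, 12681, 4856, 12929 and 16189 with IL-1β. Every IL-1β culture lay below every control, and the lines kept between 20.1 and 43.2% of their own control. The log2-fold change was −1.92 ± 0.36 (SE, n = 5), with an adjusted p of 0.00338 by limma, which places COL4A1 at 26.4% of control. COL4A2 was at 30502, 27229, 27598, 47143 and 64550 in controls and at 7781, 13958, 6695, 14859 and 17773 with IL-1β, again without overlap. Its log2-fold change was −1.70 ± 0.33 (limma adjusted p = 0.00406), or 30.8% of control. The 2 genes are direct neighbours among the protein-coding genes of the RefSeq horse annotation (TB-T2T assembly) and are known from other mammals to share a promoter region. Line 5 was highest for both genes in both conditions, and line 3 lowest with IL-1β.

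Collagen VI chains moved by unequal amounts. COL6A3, the longest chain and the one that extends furthest from the filament, was at 91865, 86187, 84609, 183495 and 184897 in controls and at 17149, 30790, 21829, 66964 and 51293 with IL-1β. Lines 4 and 5 were the highest in both conditions, and no IL-1β value reached a control value. COL6A3 fell by 1.83 on the log2 scale (SE 0.41, limma adjusted p = 0.00785), to 28.1% of control. COL6A2 was at 179170, 178113, 130387, 160964 and 182773 in controls and at 67250, 72912, 44089, 89409 and 84834 with IL-1β. It fell by 1.24 (SE 0.22, limma adjusted p = 0.00248), to 42.2% of control, with the smallest standard error of the 10. COL6A1, which lies next to COL6A2 among the protein-coding genes of the same annotation, was at 186145, 169427, 117417, 159099 and 170584 in controls and at 91744, 82925, 52490, 114538 and 109500 with IL-1β. All 5 lines were lower and the groups did not overlap, but the log2-fold change of −0.87 ± 0.24 (limma adjusted p = 0.0234) was smaller than 1, so COL6A1 was not a DE gene. Line 3 was lowest in both conditions for COL6A1 and COL6A2.

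COL15A1 and COL8A1, the multiplexin and the short-chain collagen, both fell. COL15A1 was at 83337, 72887, 41245, 44161 and 40888 in controls and at 23735, 23303, 8830, 21732 and 24808 with IL-1β. All IL-1β cultures but line 3 sat within a narrow band from 21732 to 24808 and line 3 lay far below that band, while the controls of lines 1 and 2 stood above the other three. The log2-fold change was −1.48 ± 0.32 (limma adjusted p = 0.00709), or 35.7% of control. COL8A1 was at 8502, 11595, 7863, 7532 and 4651 in controls and at 1421, 3361, 4519, 4642 and 2887 with IL-1β. The groups did not overlap, by the small margin between 4642 in line 4 with IL-1β and 4651 in the line 5 control. COL8A1 fell by 1.31 (SE 0.33, limma adjusted p = 0.0144). That call rested on lines 1 and 2: without line 1 the log2-fold change was −0.99 (adjusted p = 0.0322), and without line 2 it was −1.19 (adjusted p = 0.0566).

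The FACIT collagens differed from each other. COL12A1, which binds fibrils and is prominent in tissues under load, was at 49519, 47668, 77192, 102956 and 102417 in controls and at 3777, 14715, 9461, 50163 and 20661 with IL-1β. Its log2-fold change of −2.36 ± 0.58 (limma adjusted p = 0.0129) had the largest size of the 10, to 19.5% of control, and also the largest standard error. The lines kept between 7.63% (line 1) and 48.7% (line 4) of their control, and the groups overlapped because line 4 with IL-1β stood above the controls of lines 1 and 2. Without line 3 the adjusted p was 0.0540, and without line 5 it was 0.0510.

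COL14A1, the FACIT collagen that binds the proteoglycan decorin, had no shared direction. It was at 13378, 4425, 13179, 16987 and 20139 in controls and at 3335, 8144, 16022, 27971 and 14107 with IL-1β. Lines 2, 3 and 4 were higher with IL-1β, at between 122 and 184% of control, and lines 1 and 5 were lower, at 24.9 and 70.0%. The mean count was 13622 ± 5887 (SD, n = 5) in controls and 13916 ± 9318 with IL-1β, slightly higher. The log2-fold change was −0.13 with a 95% interval from −1.37 to 1.12 (limma adjusted p = 0.894). That interval did not exclude a change of 2-fold in either direction. With the line as a block the interval was from −1.11 to 0.86, which reached a 2-fold fall but not a 2-fold rise. COL16A1, a minor FACIT collagen, was at 13286, 12404, 15431, 25523 and 21734 in controls and at 11797, 9975, 6510, 13036 and 12695 with IL-1β. It was lower in 5 of 5 lines, but the groups overlapped and the log2-fold change of −0.70 (SE 0.25) missed the threshold (limma adjusted p = 0.0580).

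Because the chains of collagen IV and of collagen VI assemble into shared trimers, ratios between their genes within a library were compared as well, with the ratio of 2 FACIT collagens beside them. Such a ratio does not depend on a scaling factor common to all genes of a library. A transcript length that is the same in all libraries affects its level but not its change. The 4 log2 ratios were tested with exact two-sided permutation tests over the libraries, which for 5 against 5 cannot give a p under 0.00794. COL6A1 relative to COL6A2 was −0.06 ± 0.08 (SD, n = 5) in controls and 0.32 ± 0.10 with IL-1β, higher in all 5 lines and without overlap (exact p = 0.00794, adjusted over the 4 ratios 0.0159). COL6A3 relative to COL6A1 moved from −0.43 ± 0.58 to −1.40 ± 0.62, lower in all 5 lines (exact p = 0.0317, adjusted 0.0317). In these 5 lines the 3 chains of collagen VI thus fell by unequal amounts on average, COL6A3 by the most and COL6A1 by the least. On average that order was not repeated in the second batch, where COL6A3 changed by −0.84, COL6A2 by −1.13 and COL6A1 by −0.80. Lines 6 and 7 of that batch kept the order. Line 8 did not, with changes of 0.61 for COL6A3, −0.87 for COL6A2 and −0.40 for COL6A1.

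COL4A1 relative to COL4A2 was 0.01 ± 0.13 in controls and −0.20 ± 0.15 with IL-1β, a small difference of −0.22 that was lower in 5 of 5 lines (exact p = 0.0317, adjusted 0.0317). COL12A1 relative to COL14A1 went from 2.56 ± 0.56 to 0.33 ± 0.67, lower in 5 of 5 lines and without overlap (exact p = 0.00794, adjusted 0.0159). Line 1, where both FACIT genes were lower with IL-1β, and line 2, where they moved in opposite directions, thus shared the shift in their ratio. With the line as a block, by flipping the sign of each line's difference, all 4 ratios had an exact p of 0.0625, the smallest that 5 lines allow.

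**Figure D2:**
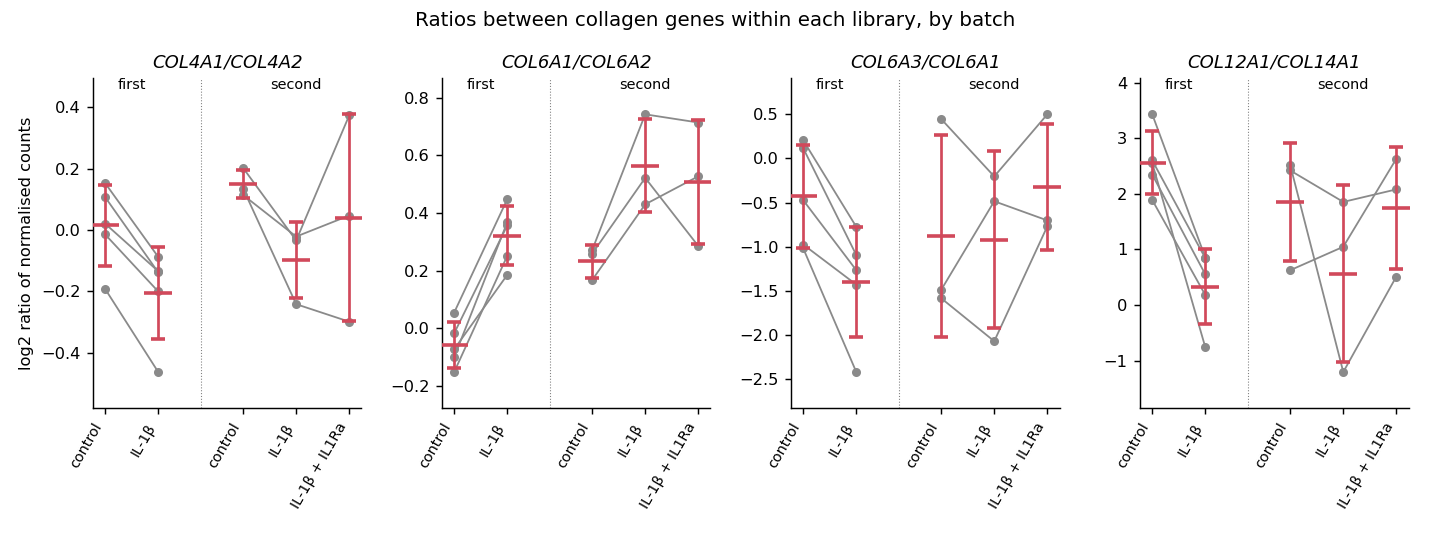
Log2 ratios of normalised counts between pairs of collagen genes in each library, first batch left of the dotted line and second batch right of it. Grey points joined by lines are tenocyte lines and the red marks are the group mean ± SD. The COL6A1/COL6A2 ratio was higher with IL-1β in 5 of 5 and in 3 of 3 lines, and the COL4A1/COL4A2 ratio was lower in 5 of 5 and in 3 of 3.

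The second batch asked whether IL1Ra altered the response, and held its own IL-1β comparison in 3 further lines. No collagen passed the limma threshold with IL-1β, and 0.0718% of the 16705 genes tested fell as DE genes. An unadjusted p under 0.05 was found for 4 of the 10 and for 11.4% of all genes. The mean log2 value was lower for all 10 and for 8477 of all 16705 genes. Their median log2-fold changes were −1.16 for the 10 and −0.0084 over all genes. Libraries of the same line resembled each other, and with the line as a block 3 of 10 fell (COL4A1, COL4A2 and COL15A1), beside 2.59% of all genes. For 4 of 10 (COL4A1, COL6A2, COL8A1 and COL15A1) the groups did not overlap, beside 7.61% of all genes.

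COL15A1 had the largest change with IL-1β in this batch. It was at 33208, 48247 and 63445 in the controls of lines 6 to 8 and at 4562, 13478 and 8624 with IL-1β. The lines kept 13.7, 27.9 and 13.6% of their controls. Its log2-fold change was −2.53 ± 0.51 (SE, n = 3; limma adjusted p = 0.0998, and 0.00652 with the line as a block), beside −1.48 in the first batch, and the difference between batches was not tested. Without line 6 the adjusted p was 0.0417 in the fit without the block.

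Collagen IV chains were lower in 3 of 3 lines. COL4A1 was at 19490, 13049 and 5453 in controls and at 5364, 3858 and 3438 with IL-1β, and its log2-fold change was −1.43 ± 0.46 (limma adjusted p = 0.280, with the block 0.0245). COL4A2 was at 17753, 11344 and 5039 in controls and at 6344, 3951 and 3491 with IL-1β, a change of −1.18 ± 0.52 (limma adjusted p = 0.439, with the block 0.0390). Line 8 started lowest and had the smallest response for both chains. Its COL4A2 control lay below the IL-1β value of line 6, and its COL4A1 control just above it.

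COL8A1 was at 4393, 4428 and 7327 in controls and at 3573, 1220 and 1928 with IL-1β (log2-fold change −1.36 ± 0.38, limma adjusted p = 0.210). COL6A2 was at 70139, 80938 and 41550 in controls and at 25364, 38856 and 22745 with IL-1β (−1.13 ± 0.41, limma adjusted p = 0.336). Both genes were lower in 3 of 3 lines without overlap, and neither was DE with or without the block. COL6A1 was also lower in 3 of 3, at 83951, 90919 and 50163 against 36424, 52363 and 38056.

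Of the remaining genes, COL6A3, COL14A1 and COL16A1 did not move the same way in all 3 lines. COL6A3 was at 114464, 30336 and 17871 in controls and at 31630, 12464 and 27199 with IL-1β, lower in lines 6 and 7 and at 152% of control in line 8. COL16A1 was likewise higher in line 8, at 8244 against 4174, with 6206 against 16078 in line 6 and 4781 against 5019 in line 7. COL12A1 was lower in all 3 lines, at 22290, 3897 and 7806 against 93007, 21834 and 11258 in controls. COL14A1 was at 51347 in line 6 with IL-1β against 16258 in its control, or 316%, and at 1077 against 4080 in line 7 and 3775 against 7293 in line 8. Its mean count was therefore higher with IL-1β, at 18733 against 9210, although its mean log2 value was lower. Their limma adjusted p values lay between 0.643 and 0.967, and the 95% interval for COL14A1, from −4.08 to 3.27, was too wide to show a direction. With the line as a block that interval was narrower, from −1.86 to 1.06, and still lay on both sides of no change.

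Among the ratios, COL6A1 relative to COL6A2 was higher by 0.33 in 3 of 3 lines and COL4A1 relative to COL4A2 lower by −0.25 in 3 of 3, each with an exact p of 0.1, the smallest that 3 against 3 libraries allow. COL6A3 relative to COL6A1 differed by −0.04 (exact p = 1), and COL12A1 relative to COL14A1 by −1.29 and in 2 of 3 lines (exact p = 0.3).

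**Figure D3:**
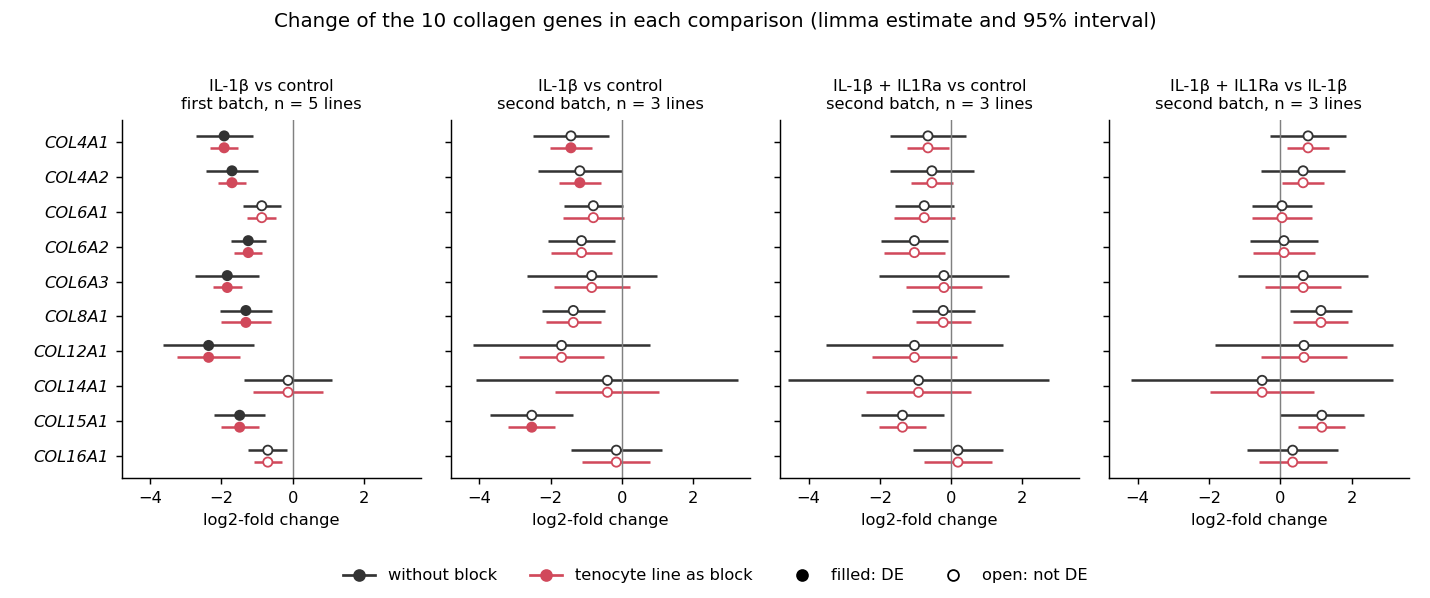
Log2-fold changes of the 10 collagen genes in 4 comparisons, with 95% intervals from limma, grey without and red with a block for tenocyte line; filled points are DE genes. Filled points appear for 7 genes with IL-1β in the first batch, and for COL4A1, COL4A2 and COL15A1 in the second batch with the block only.

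IL1Ra was added together with IL-1β, and these cultures were compared with the same controls and the same IL-1β cultures as above, so the comparisons share libraries. Against control, no collagen was DE with IL-1β + IL1Ra, with or without the block, and 0.012% of all genes were DE in either direction (0.251% with the block). An unadjusted p under 0.05 was found for 2 of the 10 and for 5.67% of all genes. The mean log2 value was below control for 9 of the 10 and for 8174 of all 16705 genes. Their median log2-fold changes were −0.70 for the 10 and 0.0095 over all genes. Against IL-1β alone, no collagen was DE in either fit, and 0% of all genes were DE (0.00599% with the block). An unadjusted p under 0.05 was found for 1 of the 10 (COL8A1) and for 2.78% of all genes. The mean log2 value was above that with IL-1β for 9 of the 10 and for 8530 of all 16705 genes. Their median log2-fold changes were 0.64 for the 10 and 0.0088 over all genes.

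With IL1Ra, 4 collagens (COL4A1, COL4A2, COL8A1 and COL15A1) were higher than under IL-1β alone in 3 of 3 lines. The share of all genes that did so was not counted, nor was the share without overlap between groups in these comparisons. COL15A1 was at 9868, 21768 and 27826, which is 29.7, 45.1 and 43.9% of the controls. All 3 values lay above those of the same lines with IL-1β and below every control, with a log2-fold change of 1.16 ± 0.51 against IL-1β and −1.36 ± 0.51 against control (limma adjusted p = 1.00 and 0.822). COL8A1 was at 4270, 4022 and 5254, which is 97.2, 90.8 and 71.7% of control and above every IL-1β culture. Its log2-fold change was 1.14 ± 0.38 against IL-1β and −0.22 against control, with a 95% interval from −1.10 to 0.66 for the latter.

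Collagen IV chains were intermediate. COL4A1 was at 9878, 7022 and 5197 with IL1Ra, or 50.7, 53.8 and 95.3% of control, with a log2-fold change of 0.78 ± 0.46 against IL-1β. COL4A2 was at 12154, 5420 and 5031, with a change of 0.64 ± 0.52 against IL-1β and −0.54 ± 0.52 against control. For both chains the value of each line lay between its IL-1β and its control value.

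Among the collagen VI chains with IL1Ra, COL6A1 was at 59674, 33740 and 39836 and COL6A2 at 48946, 23404 and 24282, lower than control in 3 of 3 lines. Relative to IL-1β alone both were higher in lines 6 and 8 and lower in line 7, with log2-fold changes of 0.05 ± 0.36 and 0.10 ± 0.41 and 95% intervals from −0.78 to 0.88 and from −0.84 to 1.05. COL6A3 was at 84410, 19801 and 24491, higher than with IL-1β in lines 6 and 7 and lower in line 8, with a log2-fold change of 0.64 and a 95% interval from −1.18 to 2.47. COL6A3 relative to COL6A1 differed by 0.60 from IL-1β alone (exact p = 0.6, adjusted over the 4 ratios 0.8), so a difference between these chains was not shown. The COL6A1/COL6A2 ratio was 0.23 ± 0.06 (SD, n = 3) in controls, 0.57 ± 0.16 with IL-1β and 0.51 ± 0.21 with IL-1β + IL1Ra, higher than control in 3 of 3 lines in both cases (exact p = 0.1 each).

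FACIT collagens with IL1Ra again differed by line. COL12A1 was at 43720, 3744 and 16520, about the IL-1β value in line 7 and at 196 and 212% of it in lines 6 and 8. COL14A1 was at 30652, 885 and 2666, lower than with IL-1β in 3 of 3 lines and the 1 collagen with a lower mean log2 value in that comparison. Its log2-fold change there was −0.51, with a 95% interval from −4.19 to 3.17, or from −1.97 to 0.95 with the line as a block. COL16A1 was at 12084, 4548 and 9173, with a log2-fold change of 0.19 ± 0.55 against control, the 1 positive change there.

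**Figure D4:**
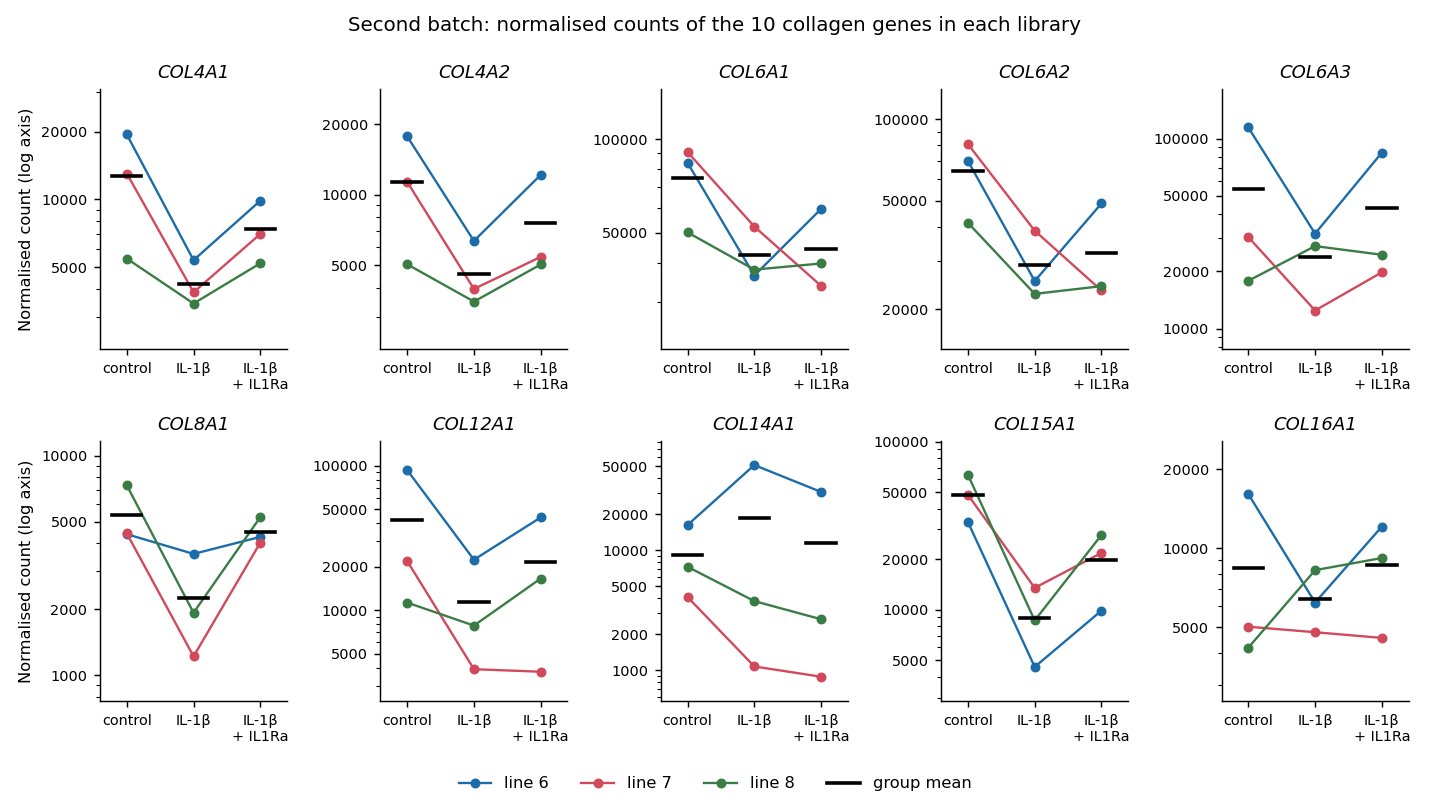
Normalised counts (log axis) of the 10 collagen genes in the 9 second-batch libraries under control, IL-1β and IL-1β + IL1Ra, with 1 coloured line per tenocyte line and a black bar at the group mean. For COL4A1, COL4A2, COL8A1 and COL15A1 all 3 lines go down with IL-1β and are higher with IL1Ra, and COL14A1 spans from 885 to 51347.

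Genes that work with these collagens were read from lists of partners. Of 22 other non-fibrillar collagens listed in the first batch, 6 passed the filter. With IL-1β 4 of the 6 fell (COL18A1, COL13A1, COL23A1 and COL9A2), beside 7.9% of all genes tested. COL18A1, the other multiplexin beside COL15A1 and the source of endostatin, fell from 13572 ± 4759 to 1523 ± 165 normalised counts (SD, n = 5). Its log2-fold change was −3.09 (SE 0.21, limma adjusted p = 1.2e-05). COL13A1, a transmembrane collagen, fell by 3.13 on the log2 scale, but from 258 ± 122 to 32.5 ± 20.3. In the second batch COL18A1 had a log2-fold change of −2.68 and was a DE gene with the block (limma adjusted p = 0.317, with the block 0.0143). COL13A1 and COL23A1 had log2-fold changes of −2.49 and −2.35 there and were not DE in either fit, and COL9A2 had one of 0.53, higher in 2 of 3 lines.

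Basement membrane partners of collagen IV did not share 1 direction. Of the 18 tested, 4 fell (FBLN1, HSPG2, LAMA5 and SPARC), 1 rose (LAMA4) and 13 were not DE, and with the line as a block 6 fell. Over all genes tested in that batch, 7.9% fell and 4.91% rose, and 10.2% fell with the block. FBLN1, or fibulin-1, an elastic fibre and basement membrane glycoprotein, fell from 21414 ± 6700 to 1169 ± 503, a log2-fold change of −4.24. HSPG2, the proteoglycan perlecan, and LAMA5, a laminin chain, each had a log2-fold change of −1.01. SPARC, a secreted protein that binds collagen IV, had one of −1.005, so all 3 were close to the fold threshold. LAMB1, LAMC1, NID1 and NID2, the common laminin chains and the nidogens that join laminin to collagen IV, had log2-fold changes of 0.03, 0.66, 0.62 and −0.23 and none was DE. LAMA4, a laminin chain of mesenchymal and vascular basement membranes, rose by 1.18, from 5883 ± 3770 to 11935 ± 3896. It changed by 0.15 in the second batch (limma adjusted p = 0.984, with the block 0.854), higher in 2 of 3 lines. LAMA5 changed by −0.66 there and was not DE in either fit. Of the 20 partners tested there, 0 were DE without the block. With the block 2 fell (LAMA3 and LAMC3), beside 2.59% of all genes. Both had low mean counts, 95.5 in controls and 21.2 with IL-1β for LAMA3, and 42.1 and 1.05 for LAMC3. FBLN1 ranged from 8253 to 24060 in controls of that batch and from 618 to 1751 with IL-1β, without overlap, but was not DE in either fit.

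Partners of collagen VI and of the FACIT collagens showed both directions. Of 12 tested, 5 fell (MATN2, COMP, DPT, CSPG4 and FBLN2), 2 rose (ANTXR1 and ANTXR2) and 5 were not DE, and with the block FMOD fell as well. Over all genes, 7.9% fell and 4.91% rose (10.2 and 6% with the block). CSPG4, the NG2 proteoglycan that binds collagen VI at the cell surface and also marks pericytes, fell from 5399 ± 1892 to 584 ± 635. COMP, which binds FACIT and fibrillar collagens, had a log2-fold change of −4.08, and DPT, or dermatopontin, one of −4.07. ANTXR1 and ANTXR2, cell-surface receptors for collagen VI and other matrix proteins, rose by 1.06 and 1.24, higher in 5 of 5 lines. In the second batch ANTXR1 was likewise higher in 3 of 3 lines, by 1.22 (limma adjusted p = 0.121, with the block 0.0370), where ANTXR2 changed by 0.25. Of the 12 tested there, 0 were DE without the block. With it 3 fell and 1 rose, beside 433 and 432 of all 16705 genes. Mean counts there, control then IL-1β, were 334 and 49.1 for MATN2, 17531 and 1541 for COMP, and 1576 and 138 for DPT. They were 1085 and 243 for CSPG4, and 24571 and 10777 for FBLN2. COMP ranged from 131 to 51392 in those controls. The fibrillar collagens are given by count: of 8 tested in the first batch, 4 fell and none rose.

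**Figure D5:**
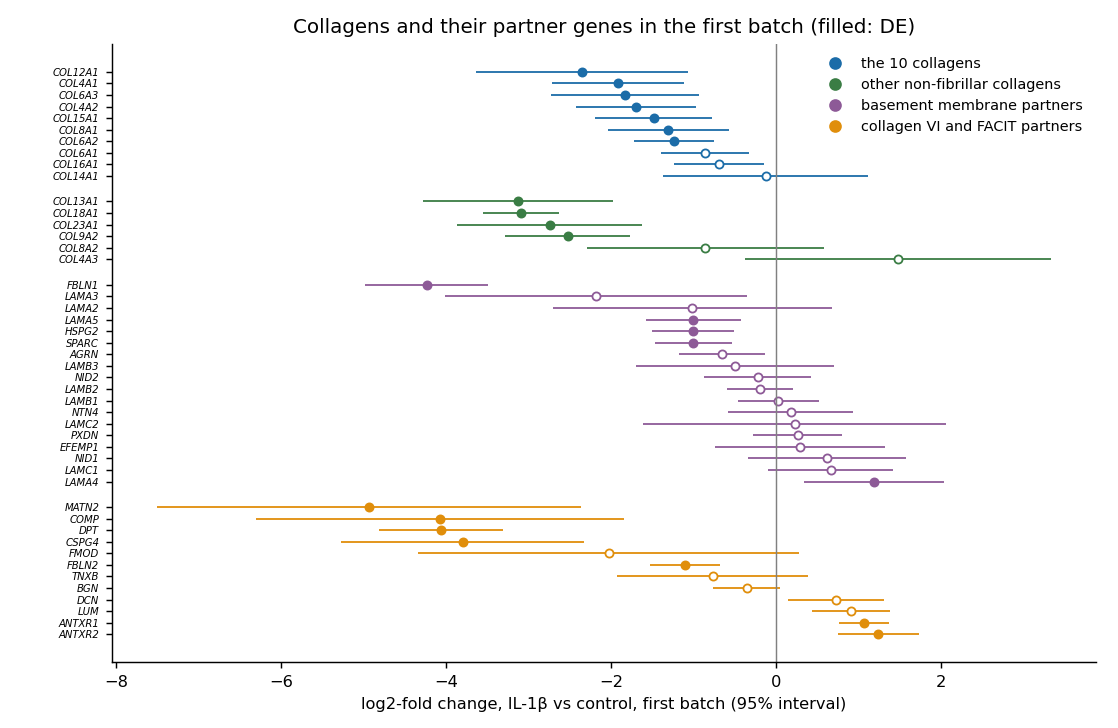
Log2-fold changes with 95% intervals (limma, IL-1β against control, first batch) for the 10 collagens, other non-fibrillar collagens, basement membrane partners, and partners of collagen VI and FACIT collagens; filled points are DE genes. The 10 collagens lie between −2.36 and −0.13. The other non-fibrillar collagens lie between −3.13 and 1.47, the latter being COL4A3, which was not DE. The basement membrane, collagen VI and FACIT partner lists extend to both sides of 0, from −4.94 to 1.24.

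The similarity of the 10 genes to each other was described by Pearson's r of log2 values over the libraries of a batch, which share lines and conditions, so that any pair of genes moved by IL-1β is alike to some degree. COL4A1 and COL4A2 had an r of 0.99 over 10 libraries of the first batch and 0.97 over 9 of the second, and COL6A1 and COL6A2 had 0.97 and 0.99. COL6A3 was more like COL12A1, with 0.96 and 0.91, than like COL6A1, with 0.84 and 0.51. COL14A1 and COL15A1 had −0.17 and −0.34.

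Among 12350 genes tested in both batches, the 3 outside the 10 collagens with the highest r in the first batch were read for each collagen. The second batch, set beside them, had no part in choosing those 3. The pairs quoted below were picked after its values were seen, so its r is no separate check on them. For COL6A2 the closest was LMNA, a nuclear lamina protein, with 0.99 in the first and 0.95 in the second batch. S100A10 was among the closest to COL6A1 (0.98 and 0.97), MBOAT2 was the closest to COL12A1 (0.99 and 0.92) and PDLIM3 the closest to COL15A1 (0.97 and 0.91). HERC1 was the third for COL14A1 (0.93 and 0.90). Other pairs were not alike in the second batch: FNDC10, the closest to both COL4A1 and COL4A2 (0.98 each), had 0.36 and 0.18 there, MLXIP, the closest to COL6A3, had 0.99 and 0.30, and CCDC85B, the third for COL12A1, had 0.98 and −0.88.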

How the data were processed

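The mRNA of 19 libraries had been sequenced as read pairs. The authors estimated transcript abundance with Salmon on the EquCab3.0 transcriptome, brought it to gene level and normalised it with DESeq2 (R 4.2.1, DESeq2 1.36). Whether 1 factor per library or factors per gene were used was not stated. The deposited signal is thus a normalised count per gene, 1 table per batch, without the unscaled counts or transcript lengths. At low values 70.5 to 82.9% lay within 0.1 of a whole read, too few to recover reads. No pair of libraries was identical.

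Genes with at least 10 normalised counts in 5 (first batch) or 3 libraries (second) were tested as log2(value + 1) with limma 3.58.1 in R 4.3.3 (eBayes with trend, Benjamini-Hochberg over all genes tested). Fold changes on this scale understate those of low genes. The 3 second-batch conditions were fitted together. Intervals are 95% intervals of limma. The code was tested on simulated data. Groups, batch and line were taken from the sample labels. Lines are separate donors: deviations from group means correlated between libraries of the same line (r from 0.35 to 0.58 in 5 pairs, and from 0.54 to 0.79 in 9) and ranged from −0.62 to 0.29 between lines, so the line served as a block in an alternative fit. Ratios were compared by exact permutation (SciPy 1.17.1).

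The 10 collagens, partner lists, marker lists and tests were chosen with earlier results of these data known. Named beside the 10 were partners that were DE in the first batch, or their main assembly partners, and the 3 genes of highest r for each; HERC1, S100A10 and the other pairs quoted were picked among those 30 after their values were seen, as were LAMB1, LAMC1, NID1 and NID2. Alternatives were the pseudocount (0.5 and 5), the filter (none and 50), rescaling to equal sums or upper quartiles, no trend, the block, each line left out, the adjusted p alone, and 2 conditions instead of 3. All 10 symbols matched RefSeq, whose assembly is not that of the tables, so no coordinates are given.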

Additional observations from a re-analysis of the deposited data

Results flagged for a closer look

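For each of the 10 collagens in the first batch, the 5 controls, the 5 IL-1β values and the 5 changes within a line (30 groups of 5 values) were screened on the log2 scale for a value far from the rest. In 2 groups the lowest value stood apart, where chance alone flags about 1 in 20 groups. The COL14A1 control of line 2 was the lowest, at 4425 normalised counts, with a gap to the next value of 0.720 of the range against a critical value of 0.71. The COL15A1 value of line 3 with IL-1β was the lowest, at 8830, with a gap of 0.872 of the range; leaving out line 3 did not end the COL15A1 call.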

How the results depend on the processing

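In the first batch 7 collagens were DE, between 6 and 7 with 1 line left out and 8 by the adjusted p alone (COL6A1 added); the losses were COL8A1 without line 1 or 2 and COL12A1 without line 3 or 5. The number of DE genes was 1885, 4078 by the adjusted p alone, 2386 with the line as a block and 1377 to 1716 with a line left out. In the second batch DE collagens rose from 0 to 3 with the block and were 0 to 1 with a line left out, and the 57 DE genes with IL-1β became 865 with the block, 34 without trend, 32 with 2 conditions and 0 to 324 with a line left out (324 without line 6). Against control, the 2 DE genes with IL1Ra became 42 with the block, 1 with equal sums, 0 with 2 conditions and 0 to 36 with a line left out. Against IL-1β, the 0 DE genes became 1 with the block and 0 to 10 with a line left out. The block changed no other call of a collagen. Rescaling to equal sums moved the median of all genes to −0.19 (IL-1β against control) and 0.11 (IL1Ra against IL-1β) in the second batch, with 0 DE collagens in either.

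The first-batch ratio differences of −0.22 (COL4A1/COL4A2), 0.38 (COL6A1/COL6A2), −0.97 (COL6A3/COL6A1) and −2.23 (COL12A1/COL14A1) kept their sign but not their call with the block (exact p = 0.0625). With a line left out they ranged from −0.24 to −0.21, 0.36 to 0.41, −1.10 to −0.86 and −2.36 to −1.96, and each lost the call without at least 1 of the lines. In the second batch with a line left out, COL6A3/COL6A1 ranged from −0.57 to 0.26 with IL-1β, COL4A1/COL4A2 from −0.25 to 0.052 and COL12A1/COL14A1 from −1.17 to 0.83 with IL1Ra against control, and COL6A1/COL6A2 from −0.13 to 0.034 against IL-1β.

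Uncalled changes that turned sign with a line left out were COL14A1 in the first batch (from −0.38 to 0.34, positive without line 1) and, in the second, COL16A1 (−0.72 to 0.46, positive without line 6) and COL14A1 (−1.43 to 0.35, positive without line 7) with IL-1β, COL6A3 (−0.53 to 0.0076, positive without line 7) and COL16A1 (−0.28 to 0.50, negative without line 8) with IL1Ra against control, and COL6A1 (−0.28 to 0.39) and COL6A2 (−0.32 to 0.52) against IL-1β, both negative without line 6. Beyond the alternatives that left out fewer libraries, the cause was not tested. With 3 lines, only large changes could pass the threshold, and levels of the 2 batches cannot be compared.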
